A study of Mus musculus with 8 samples.

Results

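The receptors and Smads through which TGF-beta and bone morphogenetic proteins (BMPs) signal were followed here by a histone mark, trimethylation of histone H3 at lysine 36 (H3K36me3). The set was named gene by gene and not chosen on measured values. It holds 10 of 21887 annotated protein-coding genes: the type II receptors Tgfbr2 and Bmpr2, the type I receptors Tgfbr1, Bmpr1a and Acvr1, the receptor-regulated Smads Smad2 and Smad3 of the TGF-beta branch, Smad1 and Smad5 of the BMP branch, and the common partner Smad4. All 10 were found in the RefSeq gene table of mouse build GRCm38.p6.

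The mark was mapped by ChIP-seq, immunoprecipitation of chromatin followed by sequencing, in mouse bone marrow stromal cells, adherent cells of the marrow that can form bone, cartilage and fat. They were taken from C57BL/6J mice, had been passaged 2 times, and carried a floxed Setd2 gene in every sample. A lentivirus expressing GFP left the gene intact (called WT here), and one expressing Cre recombinase deletes the floxed part (KO). Selection with puromycin (2 µg/ml) lasted 4 days in all cells, and fixation in 1% formaldehyde 10 min. Each genotype had 2 H3K36me3 libraries, and both were called against the same single Input library and the same single IgG library of that genotype. WT and KO are therefore labels of a virus given in culture, and neither group is an animal that lacks Setd2. Peaks of the mark do not show whether the floxed part was lost, so the deletion itself was not checked here. Whether the paired libraries stem from separate cultures is not stated in the labels, so p-values here speak only of the spread of these samples, and that spread may be technical.

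Setd2 is the enzyme that places H3K36me3, and it travels with RNA polymerase II, so that the mark builds up over the bodies of transcribed genes and toward their 3' ends. In the pathway itself, a ligand brings together type II and type I receptors, the type II receptor phosphorylates the type I receptor, and the activated type I receptor phosphorylates a receptor-regulated Smad. That Smad joins Smad4 and enters the nucleus. In marrow stromal cells the pathway is known for its part in the commitment to bone and cartilage.

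The measurements were the authors' lists of H3K36me3 peaks, 1 list per library, which for calls against Input held 242745 and 246258 peaks (WT) or 122589 and 159459 (KO). These lists give the values below unless IgG is named. Read counts are not part of them, so depth is unknown, although the number and width of peaks depend on it. Coverage below means the share of a gene's annotated length, in percent, that lies under peaks. Of 13 stromal marker genes, 10 had enough coverage to be tested and the median WT coverage was 51.0%, led by Vim, Col6a1 and Col1a1. Against IgG, Col6a1 had a WT mean of 64.0%, whereas Vim and Col1a1 had none, Cxcl12 had 2.61% and Col1a2 5.61%. In the Input lists Thy1 had no peak in any library and Lepr had 3.33% and 0.813% in WT. The 9 haematopoietic markers had a median WT coverage of 19.1%, with Lyz2 at 74.9% and 87.6%, Csf1r at 45.1% and 43.5% and Ptprc at 15.0% and 14.2%, and the 5 endothelial markers had 4.11%. Lyz2 had no WT coverage against IgG, where Csf1r had a WT mean of 36.4%. Cd68 had 37.0% and 71.3% in WT in the Input lists and a WT mean of 54.2% against IgG, whereas Cd3e had no WT coverage in either. Summed as a mean over the list, haematopoietic coverage was 26.1% and 34.4% in WT against 2.31% and 7.12% in KO, and stromal coverage was 43.6% and 40.01% in WT against 2.27% and 1.99% in KO. The part of blood cells in the values of the receptors and Smads was not tested. In a bulk sample, fewer cells that carry the mark and less of the mark per cell cannot be told apart.

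The starts of the genes are shown first, because peaks lay over 1 of them alone. The RefSeq start table holds 11 start windows of 8 of the genes (Smad2 and Smad4 are not in it), and the 250 bases before each start were set against the peaks. The only window under peaks was that of an internal start of Tgfbr1, 33.0 kb inside the gene. The outer start of Tgfbr1, that internal start, the start of Bmpr1a and that of Tgfbr2 are printed 5' to 3' along the gene's strand from RefSeq (GRCm38.p6), with each CG in capitals. They are the starts of the 2 genes whose marked part began farthest from the start and, for contrast, of the gene whose marked part began nearest to it. Tgfbr1 lies on the plus strand, with the outer window at chr4:47352972-47353221 and the internal one at chr4:47385966-47386215. Bmpr1a (chr14:34502547-34502796) and Tgfbr2 (chr9:116175364-116175613) lie on the minus strand.
Tgfbr1 outer start: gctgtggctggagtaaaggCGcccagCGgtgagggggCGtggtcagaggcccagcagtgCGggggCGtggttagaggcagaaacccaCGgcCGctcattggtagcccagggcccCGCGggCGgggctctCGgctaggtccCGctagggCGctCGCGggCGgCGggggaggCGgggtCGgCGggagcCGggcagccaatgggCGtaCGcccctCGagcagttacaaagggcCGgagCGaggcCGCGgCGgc
Tgfbr1 internal start: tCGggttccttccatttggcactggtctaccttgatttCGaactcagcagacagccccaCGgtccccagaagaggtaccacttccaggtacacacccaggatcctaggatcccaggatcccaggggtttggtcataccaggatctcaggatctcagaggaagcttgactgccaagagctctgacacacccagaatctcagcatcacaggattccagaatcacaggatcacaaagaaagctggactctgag
Bmpr1a start: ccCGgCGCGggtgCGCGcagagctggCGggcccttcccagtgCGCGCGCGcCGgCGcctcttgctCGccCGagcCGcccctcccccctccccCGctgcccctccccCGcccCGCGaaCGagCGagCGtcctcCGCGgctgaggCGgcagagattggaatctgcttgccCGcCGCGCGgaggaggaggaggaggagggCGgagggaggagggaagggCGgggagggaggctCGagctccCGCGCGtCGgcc
Tgfbr2 start: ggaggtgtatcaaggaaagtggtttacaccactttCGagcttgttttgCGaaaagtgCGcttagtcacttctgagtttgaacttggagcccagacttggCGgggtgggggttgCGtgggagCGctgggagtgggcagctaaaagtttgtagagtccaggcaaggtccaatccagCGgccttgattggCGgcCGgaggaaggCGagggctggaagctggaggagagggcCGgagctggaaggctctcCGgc
CG reads the same on both strands. It occurred 29 times in the outer Tgfbr1 window, 3 times in the internal one, 36 times in the Bmpr1a window and 12 times in the Tgfbr2 window. The other windows held between 22 (Bmpr2, Smad3 and the outermost Smad5 start) and 46 (Acvr1). All 250 bases of the internal Tgfbr1 window were under peaks in both WT libraries and none in either KO library, and the lists against IgG gave the same. Of the 444 start windows in the genome that were wholly under peaks in both WT libraries, 373 (84.0%) likewise had no base under a KO peak. The other 10 windows had no base under a peak in any of the 4 libraries. Over 32851 start windows of 27025 genes, 92.1% held a CG and the median was 6. These 444 were 1.35% of them, with a median of 4 CG, and 93.4% had no base under a WT peak, with a median of 6.

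Across the 10 genes together, which span 827.1 kb, the WT lists had 327 and 315 peaks and the KO lists 33 and 31. These peaks covered 39.7% and 37.5% of the summed span in WT and 2.28% and 2.14% in KO. Coverage fell in 10 of the 10 genes (limma, Benjamini-Hochberg adjusted p between 0.000233 and 0.00134), where 92.6% of all 10809 tested genes fell and 0.555% rose. In each of the 10, both KO libraries lay below both WT libraries, as they did in 94.8% of the tested genes. The median change was -34.9 percentage points in the 10 genes and -47.7 over all tested genes. A gene was tested if its mean over the 4 libraries was at least 10%. All 10 genes met that through their WT libraries alone, so the count describes them and nothing about the set was tested. The count is near the background and is not particular to these receptors and Smads.

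**Figure D1:**
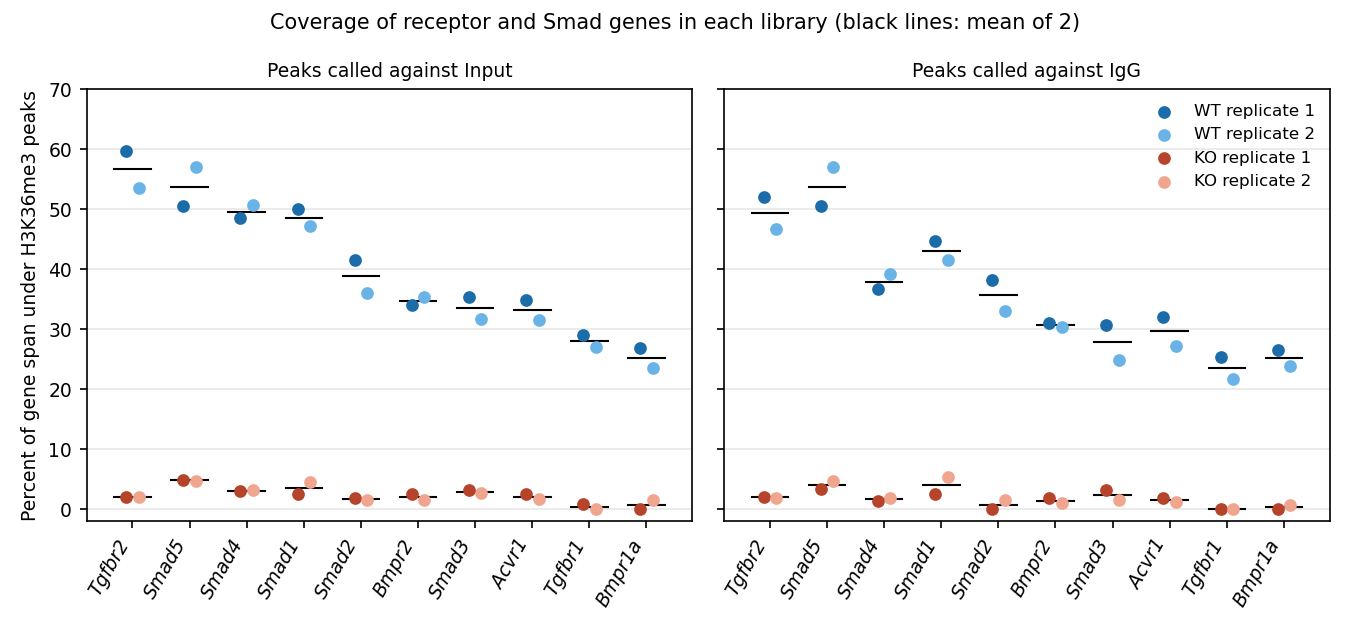
Percent of each gene's span under H3K36me3 peaks (vertical axis) for the 10 receptor and Smad genes, ordered by WT mean, in peak lists called against Input (left) and IgG (right). Points are single libraries and black lines are means of 2; every WT point lies above 20% and every KO point below 6%.

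The type II receptors stood at different levels in WT. Tgfbr2, which binds TGF-beta, lies at chr9:116087695-116175363 on the minus strand. It had 59.7% and 53.5% of its span under peaks in WT and 2.07% and 2.00% in KO, the highest WT mean of the 10 genes. Both WT libraries lay far above both KO libraries, and the 2 KO libraries were nearly equal. Coverage of Tgfbr2 fell from 56.6% ± 4.39 to 2.04% ± 0.0484 (SD, n = 2), a change of -54.6 points (SE 3.01, limma adjusted p = 0.000331). Its 42 and 36 WT peaks included one of 4290 bp, and its 4 and 3 KO peaks were at most 595 bp wide.

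Bmpr2, the type II receptor for BMPs, lies at chr1:59764279-59878081 on the plus strand. It had 34.0% and 35.3% in WT against 2.52% and 1.53% in KO, so the WT libraries lay close together and well above KO. Coverage fell by 32.6 points (SE 1.96, limma adjusted p = 0.000374). The 42 and 42 WT peaks were as many as in Tgfbr2 or more, over a longer gene. The widest WT peak in each library, 2306 bp and 4218 bp, lay at the same place, 46.2% and 46.4% of the way along the span, where the first of them (chr1:59815666-59817971) was covered wholly by the other. A KO peak of 728 bp (chr1:59816588-59817315) lay inside both, and was not among the peaks called against IgG.

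The 3 type I receptors were the last in order of WT coverage. Acvr1, also called ALK2, a type I receptor of the BMP branch, lies at chr2:58446438-58566828 on the minus strand and is the longest of the 10 genes. It had 34.9% and 31.5% in WT against 2.60% and 1.64% in KO, a fall of 31.1 points (SE 2.29, limma adjusted p = 0.00062). Its WT range overlapped those of Bmpr2 and Smad3.

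Tgfbr1, also called ALK5, the type I receptor that TGF-beta signals through, lies at chr4:47353222-47414926 on the plus strand. It had 29.1% and 27.1% in WT against 0.862% and 0% in KO. The single KO peak, 532 bp wide, was in 1 library, and against IgG neither KO library had one. Coverage fell by 27.7 points (SE 2.12, limma adjusted p = 0.000664), and the KO mean was 1.54% of the WT mean, the lowest share of the 10. None of its 23 and 20 WT peaks was wider than 1708 bp.

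Bmpr1a, also called ALK3, a type I receptor for BMPs, lies at chr14:34411061-34503336 on the minus strand. It had 26.8% and 23.5% in WT, the lowest of the 10, and 0% and 1.53% in KO. Coverage fell by 24.4 points (SE 2.39, limma adjusted p = 0.00134). Neither of its 2 KO peaks, both in replicate 2, touched a region covered in both WT libraries. Its 30 and 30 WT peaks were narrow, with 1 of them above 2 kb.

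Of the Smads phosphorylated by TGF-beta receptors, Smad2 (chr18:76241090-76311748) had 41.5% and 36.03% in WT against 1.91% and 1.52% in KO, a fall of 37.1 points (SE 2.75, limma adjusted p = 0.000647). Smad3 (chr9:63646766-63757994, minus strand) had 35.3% and 31.6% in WT against 3.20% and 2.63% in KO, a fall of 30.6 points (SE 2.32, limma adjusted p = 0.00067). Both WT libraries of Smad2 lay above both of Smad3, whereas in KO the order was the reverse.

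Smad1 and Smad5, of the BMP branch, had more WT coverage than Smad2 and Smad3 in both libraries. This does not hold for the whole branch, since its Smad9, outside the set, had 13.1% and 15.2% in WT. Smad1 (chr8:79338395-79399428, minus strand) had 50.0% and 47.1% in WT against 2.60% and 4.48% in KO, and fell by 45.02 points (SE 2.31, limma adjusted p = 0.000284). Smad5 (chr13:56703010-56742378, plus strand), the shortest of the 10 genes, had 50.4% and 57.0% in WT against 4.94% and 4.74% in KO, and fell by 48.9 points (SE 3.11, limma adjusted p = 0.000447). The KO mean of Smad5 was 9.01% of its WT mean, the highest share of the 10. Smad5 also held the widest KO peak of the set, 1362 bp, in replicate 2, with 0% of it under peaks of either WT library. Of the Smad5 bases under KO peaks, 27.3% and 10.1% lay on regions covered in both WT libraries. Smad4, the partner shared by both branches (chr18:73634790-73703791), had 48.5% and 50.7% in WT against 2.97% and 3.28% in KO, and fell by 46.5 points (SE 2.09, limma adjusted p = 0.000233).

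Ordered by WT mean, the genes ran Tgfbr2, Smad5, Smad4, Smad1, Smad2, Bmpr2, Smad3, Acvr1, Tgfbr1 and Bmpr1a. The library ranges of neighbours did not overlap between Smad1 and Smad2, between Smad2 and Bmpr2, between Acvr1 and Tgfbr1, or between Tgfbr1 and Bmpr1a. The other neighbours overlapped and their order is not resolved. Among 10039 protein-coding genes of at least 20 kb, the median WT mean was 22.9% (quartiles 2.30% and 52.0%) and the median KO mean was 2.92%. In WT, 79.4% of these genes had less coverage than Tgfbr2 and 51.8% had less than Bmpr1a, so all 10 stood above the middle of the long genes. That middle includes genes with little of the mark, since 38.85% of the long genes had a WT mean under 10%. The KO mean as a share of the WT mean ran from 1.54% in Tgfbr1 to 9.01% in Smad5. Over 5539 tested genes of at least 20 kb, the median of this share was 6.00% (quartiles 3.17% and 10.8%). The genes whose coverage in the 4 libraries came nearest to that of Tgfbr2 were Snx2 (Euclidean distance 0.878 points) and Slc39a9 (1.36 points). Nearest to Bmpr1a were Zbtb44 (0.803 points) and Gpc1 (0.910 points).

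Within the genes, the WT peaks lay toward the 3' end. Strand was known for 8 of the 10, and with the span cut into 3 equal parts, the 3' part had more coverage than the 5' part in both WT libraries of each of the 8. The same was true of 88.1% and 88.0% of 4966 long, covered genes in WT replicates 1 and 2. From the 5' part over the middle to the 3' part, the medians of these genes were 26.55%, 48.6% and 64.95% in WT replicate 1. In replicate 2 they were 25.29%, 46.71% and 62.29%. Coverage of Tgfbr2 went from 33.5% to 66.2% to 79.6% in WT replicate 1 and from 29.2% to 57.1% to 74.4% in replicate 2. Smad5 went from 23.8% to 51.0% to 76.5% and from 30.1% to 53.1% to 87.9%. Bmpr1a had 0% and 1.18% in its 5' part, 26.9% and 23.8% in the middle and 53.4% and 45.7% in the 3' part. Tgfbr1 had 4.24% and 0%, then 27.2% and 23.5%, then 55.8% and 57.8%. These 2 type I receptors were nearly bare over the 5' part. Over the 3' part they had between 45.7% and 57.8%, below the medians of the long, covered genes. There Bmpr2, Acvr1 and Smad3 had 54.6% to 61.0%, also below those medians, and Tgfbr2, Smad1 and Smad5 had 74.4% to 87.9%, above them. For Smad2 and Smad4, whose strand was not in the table, coverage by coordinate was one-sided too. Smad2 had 16.5% and 9.79% in the part with the lowest coordinates and 78.4% and 69.3% in that with the highest, and Smad4 had 73.7% and 74.3% against 6.11% and 14.0%.

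**Figure D2:**
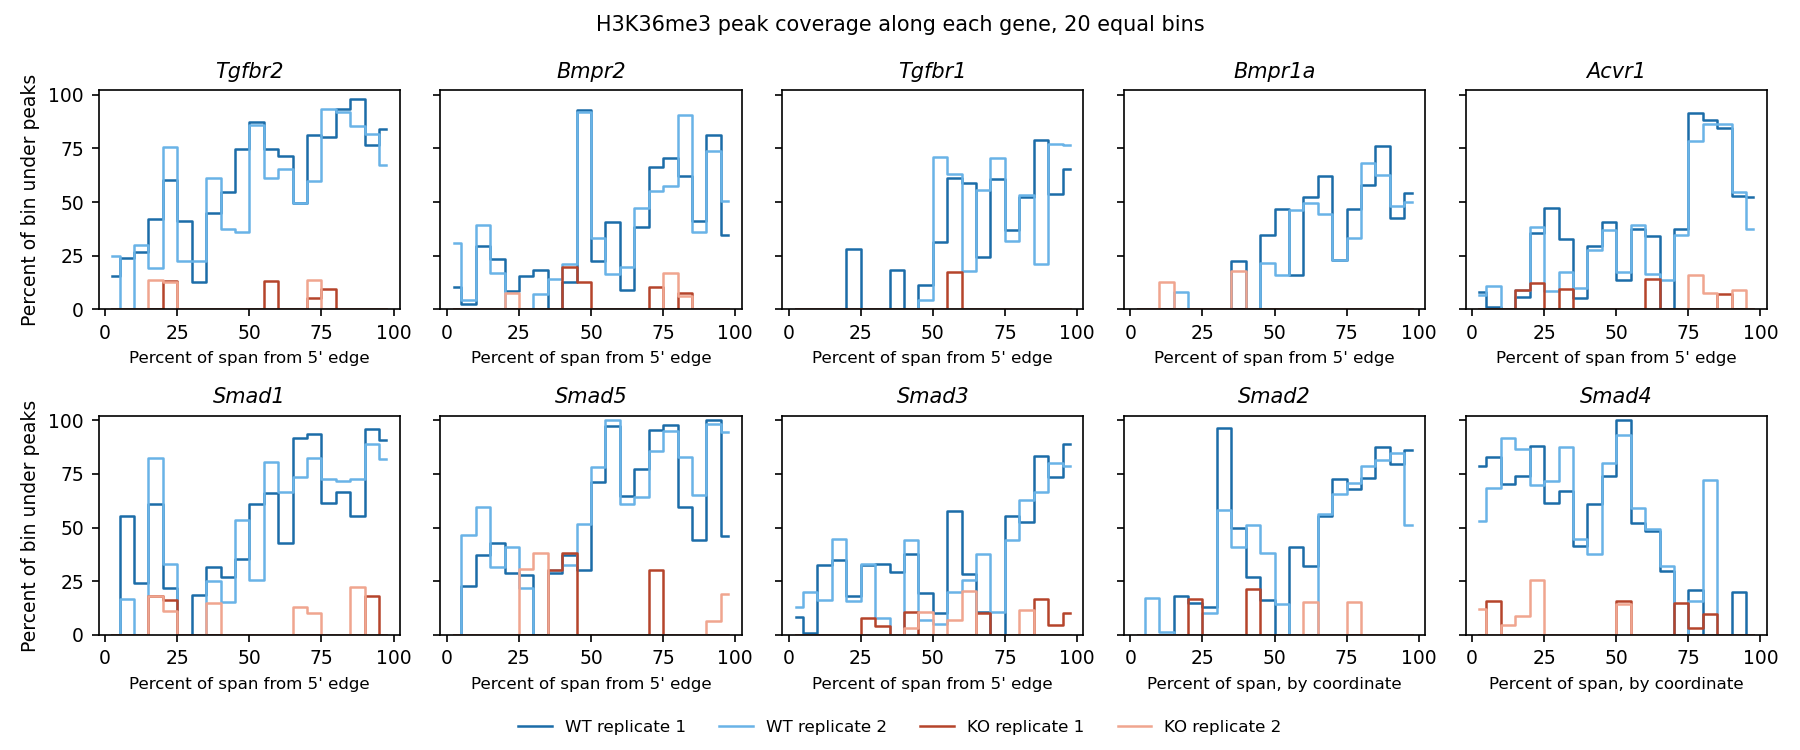
Percent of each of 20 equal bins under H3K36me3 peaks (vertical axis) along the span of the 10 genes, from the 5' edge for 8 genes and by coordinate for Smad2 and Smad4. Blue lines are the 2 WT libraries and red lines the 2 KO libraries. In the 8 genes with known strand, WT coverage is higher in the 3' part than in the 5' part, though not at every step. It is nearly absent from the 5' part of Tgfbr1 and Bmpr1a. WT coverage of Smad2 and Smad4 is one-sided by coordinate, and KO coverage is a few scattered bins.

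The distance from the gene start to the first base covered in both WT libraries was longest in the same pair. It was 2.70 kb in Tgfbr2, 2.91 kb in Smad5, 4.22 kb in Smad3, 4.52 kb in Bmpr2, 5.63 kb in Acvr1 and 9.45 kb in Smad1, but 30.7 kb in Tgfbr1 and 44.0 kb in Bmpr1a. The median over 4964 long, covered genes was 5.49 kb (quartiles 3.14 kb and 11.0 kb), and 5.76% of them lay beyond 30 kb. These genes were at least 20 kb long and not matched for length, and those shorter than 30 kb could not lie beyond it. How rare such a distance is among genes as long as Tgfbr1 (61.7 kb) and Bmpr1a (92.3 kb) was not tested. In Tgfbr1, the first base covered in both WT libraries lay 30.7 kb into the gene and the internal start 33.0 kb into it. The annotated lncRNA gene Gm32435 overlaps 53.4% of the Tgfbr1 span on its 5' side, with 6.95% and 4.05% of its own length covered in WT and 0% and 0% in KO. Peaks over an overlap cannot be assigned to one of the genes. Smaller overlaps were with the lncRNA gene Gm31292 in Tgfbr2 (5.05% of the span), with Gm51710 in Smad3 (6.09%) and with Upp2 in Acvr1 (0.425%).

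At the other end, the marked part reached the last base of the gene in Bmpr2, Tgfbr1, Smad3, Smad1 and Smad5, and came within 0.82 kb of it in Acvr1, Tgfbr2 and Bmpr1a. Coverage beyond the end differed between the genes. In the 10 kb after the gene, Smad3 had 87.6% and 84.5% under WT peaks, Bmpr1a 62.3% and 60.1% and Acvr1 40.2% and 53.3%, beside background medians of 24.9% and 23.4%. Tgfbr1 had 7.62% and 6.88% there, and Tgfbr2, the gene with the most coverage inside, had 5.08% and 11.0%. The gene Aagab, 63.3% and 58.8% covered in WT, lies 2.18 kb from the end of Smad3, and Mmrn2, with 13.2% and 15.0%, lies 6.77 kb from that of Bmpr1a. The lncRNA gene LOC108168760, with 21.1% and 11.9%, lies 6.35 kb from that of Acvr1. How much of each flank belongs to these neighbours was not tested. In the 10 kb before the start, none of the 8 genes had a base under a WT peak, as was the case for 37.2% of the background genes.

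WT peaks over the 10 genes were wider than KO peaks, as they were over the whole lists. There the mean width was 999.5 bp and 955.9 bp in WT and 584.9 bp and 591.9 bp in KO. Over the 10 genes the mean width was 1018 bp and 1016 bp in WT and 571 bp and 572 bp in KO. The median was 772 bp and 793 bp against 576 bp and 548 bp. Of the WT peaks, 28 and 27 were wider than 2 kb, 8.56% and 8.57% of those over the genes, beside 8.62% and 7.57% of the whole WT lists. No KO peak over the genes was wider than 2 kb, and in the whole KO lists 0.0742% and 0.0690% were. The widest WT peak was the 4512 bp peak of Smad4 in replicate 1, of which 90.4% lay under peaks of replicate 2, where the widest, 4226 bp, was at the same place. Against IgG the widest Smad4 peaks were 2481 bp and 2664 bp, both elsewhere in the gene, and the widest WT peak over the 10 genes was that of Tgfbr2, at 4287 bp. The measures of number and width are given as values, with no test.

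**Figure D3:**
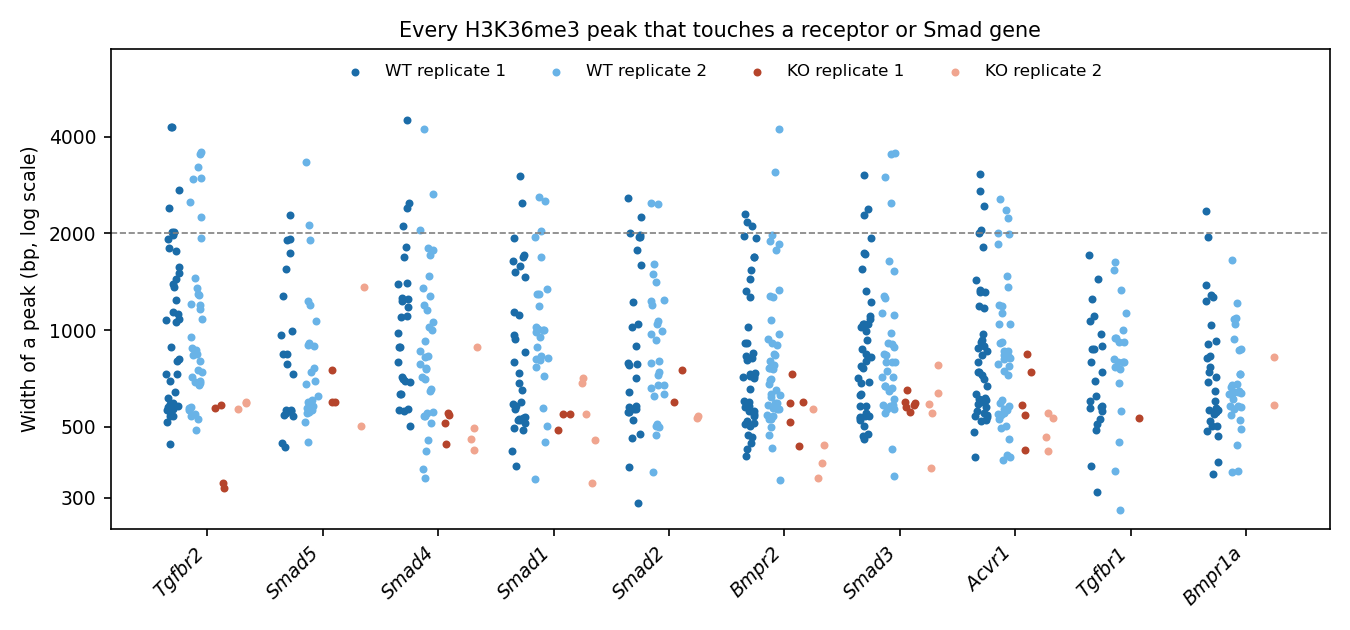
Width of every peak that touches one of the 10 genes (vertical axis, bp, log scale), with 1 column of points per library and genes ordered by WT mean coverage. The dashed line marks 2 kb; 28 and 27 WT peaks lie above it and no KO peak does, and only Smad5 has a KO peak wider than 1 kb.

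The WT libraries shared more of their covered bases in some genes than in others. Shared bases made up 63.2% of the union of the 2 WT libraries in Tgfbr2 and 62.0% in Smad5, between 41.0% and 53.6% in Smad4, Smad2, Smad1, Bmpr2, Acvr1 and Smad3, and 38.5% and 34.4% in Tgfbr1 and Bmpr1a. The KO libraries shared bases in 2 genes. In Tgfbr2 it was 1 stretch of 112 bp (chr9:116109737-116109848), which also lay under peaks of both WT libraries. It was found in the Input lists alone, since against IgG the KO libraries shared no base of Tgfbr2. In Smad1 there were 2 stretches, of 238 bp (chr8:79386539-79386776) and 480 bp (chr8:79387999-79388478), 19.9% of the union of the KO libraries, of which 224 bp and 74 bp lay under both WT libraries.

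Regions covered in both WT libraries were then set against the KO lists. There were 345 such regions over the 10 genes (210.2 kb), and 297 of them (86.1%) held no base of a KO peak, beside 82.2% of the 212612 such regions in the genome. Counted from the peaks, 14.7% and 14.9% of the WT peaks were met by at least 1 base of a KO peak, and 3.06% and 3.81% were covered over at least 50% of their width. Of the KO peaks, 23 of 33 and 20 of 31 touched a region covered in both WT libraries. These regions held 40.7% and 37.6% of the KO bases and made up 25.4% of the summed span. For the WT peaks met and the KO peaks that touched such regions, shares over all genes were not computed. These counts therefore describe the 10 genes and do not set them apart. In Tgfbr2, 3 of the 4 peaks of KO replicate 1 and 2 of the 3 of replicate 2 lay wholly under peaks of both WT libraries, and 2 of 4 and 1 of 3 did against IgG.

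Peaks called against IgG gave the same directions. In those lists coverage fell in 10 of 10 genes (limma adjusted p between 0.000822 and 0.00328), where 91.4% of 9635 tested genes fell. WT means were lower than against Input in 8 genes, for example 49.3% in WT and 2.00% in KO for Tgfbr2 and 37.9% and 1.67% for Smad4. In Smad5 (53.7%) and Bmpr1a (25.2%) the WT mean was that of the Input lists.

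The loss in each gene was then set against the loss over all genes by scaling the 4 libraries to the same mean coverage. After scaling, 5 of the 10 genes were lower in KO (Tgfbr2, Tgfbr1, Smad2, Smad1 and Smad4), where 45.2% of the tested genes were. The median scaled difference over all tested genes was -16.7 points, and among the 10 genes only that of Tgfbr2 was larger. The genes passed the filter through WT, so a scaled difference below 0 does not show a greater loss than in other tested genes. Tgfbr2 differed most, from 31.9% in WT to 9.11% in KO on the scaled axis, a difference of -22.8 points (limma adjusted p = 0.00828). Smad4 and Smad2 differed by -14.1 points each (adjusted p = 0.0195 and 0.0199), Tgfbr1 by -13.7 (adjusted p = 0.0205) and Smad1 by -12.1 (adjusted p = 0.0402). The scaled difference missed the threshold in Bmpr1a (-11.2 points, adjusted p = 0.0521), Bmpr2 (-10.2 points, adjusted p = 0.0740), Acvr1 (-8.97 points, adjusted p = 0.0960), Smad3 (-5.70 points, adjusted p = 0.190) and Smad5 (-8.65 points, adjusted p = 0.191).

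The rest of the pathway was read in 6 lists with 97 genes in all. Of these, 57 had enough coverage to be tested, 55 fell and none rose by limma. The other 2, Ccn2 and Id3, did not pass (adjusted p = 0.577 and 0.267). The median change of the tested genes was -37.3 points. These counts stand beside the 92.6% of all tested genes that fell, and after scaling 29 of the 57 were lower, beside 45.2% of all tested genes. The tested genes of every list passed the filter mainly through WT, so the counts below describe the lists and set none of them apart. After scaling, the difference turned positive in 9 of the 57, and 2 of these passed the threshold, Nedd4l (7.42 points, adjusted p = 0.0414) and Tagln (23.1 points, adjusted p = 0.0499). Below the filter were 40 genes, 10 of them without a WT peak.

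Among 17 ligands, 4 were tested and fell. Tgfb1 had 64.4% and 71.3% in WT against 2.83% and 3.80% in KO, a change of -64.5 points (limma adjusted p = 0.000279), and Tgfb3 changed by -54.9 points (adjusted p = 0.00106). The smallest falls were those of Inhbb, a subunit of activin, at -29.5 points (adjusted p = 0.0059), and Gdf11 at -30.3 points (adjusted p = 0.0282). Ligands as a list had a low median WT mean of 4.06%, with single genes from 0% to 67.9%. Bmp4, Gdf10 and Mstn had no peak in any library. Of 11 other receptors and co-receptors, 5 were tested and fell, from the activin receptor Acvr1b (-41.9 points, adjusted p = 0.00081) and the co-receptor endoglin, Eng (-36.7 points, adjusted p = 0.00106), to Tgfbr3 (-28.5 points, adjusted p = 0.00064) and Rgmb (-19.6 points, adjusted p = 0.0165). After scaling, none of these 5 passed the threshold, with differences of -10.5 points in Acvr1b (adjusted p = 0.370), -12.6 in Acvrl1 (0.128), -7.17 in Eng (0.400), -3.93 in Tgfbr3 (0.405) and -7.56 in Rgmb (0.220). The scaled differences of Gdf11 and Inhbb were above 0, at 4.38 points (adjusted p = 0.610) and 0.653 points (adjusted p = 0.975). Against IgG the WT means were lower by over 1.5 times in Tgfb1 (43.7% against 67.9%), Inhbb (10.4% against 33.4%) and Rgmb (12.2% against 20.6%).

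Of 21 extracellular activators and antagonists, 11 were tested and fell. The largest falls were in Bmp1, a protease that cleaves the BMP antagonist chordin (-65.6 points, limma adjusted p = 0.000211), and Lrrc32, a docking protein for latent TGF-beta (-63.5 points, adjusted p = 0.000407). Against IgG the WT means of these 2 genes were 29.1% and 19.1%, and Ltbp3 (44.3%), Twsg1 (32.4%), Fbn1 (31.5%) and Fstl1 (31.1%) stood above them, so this order rests on the Input lists. The smallest falls were in Ltbp2 (-26.9 points, adjusted p = 0.000955) and Fstl3 (-24.0 points, adjusted p = 0.00317). All 16 intracellular inhibitors and turnover factors were tested and fell, and 11 of them were lower after scaling, beside the background shares of 92.6% and 45.2%. Fkbp1a, which binds resting type I receptors, had 89.3% and 76.4% in WT against 0% and 2.86% in KO (-81.4 points, adjusted p = 0.000464), and the ubiquitin ligase Rnf111 changed by -65.7 points (adjusted p = 0.000211). Nedd4l (-15.0 points, adjusted p = 0.00371) and the decoy receptor Bambi (-21.4 points, adjusted p = 0.00894) changed least, and Bambi had no WT coverage against IgG. The direction of Nedd4l turned after scaling, as given above. Among 10 genes for Smad9, anchors, coactivators and kinases, 8 were tested and fell, led by the acetyltransferase Ep300 (-72.4 points, adjusted p = 0.000211) and the ubiquitin ligase Traf6 (-60.7 points, adjusted p = 0.000269). The anchor Zfyve9 (-18.8 points, adjusted p = 0.00548) and Trim33 (-32.2 points, adjusted p = 0.000673) changed least. Smad9, another Smad of the BMP branch, was below the filter at 13.1% and 15.2% in WT against 1.88% and 3.72% in KO.

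Of 22 target genes, 13 were tested and 11 fell. Col1a1, the main collagen of bone, changed by -67.1 points (limma adjusted p = 0.000397), while Runx2, the osteoblast transcription factor, changed by -13.9 (adjusted p = 0.00471). The scaled difference of Runx2 was above 0, at 6.36 points (adjusted p = 0.0596). Ccn2 had peaks in replicate 2 of each genotype alone, with 36.8% in WT and 17.7% in KO, and Id3 in WT replicate 2 alone, with 61.4%. Against IgG, 2 of the target genes were tested, and Col1a1, Acta2, Tagln, Junb, Ccn2, Id2 and Sp7 had no WT coverage at all, so their WT values rest on the Input lists.

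**Figure D4:**
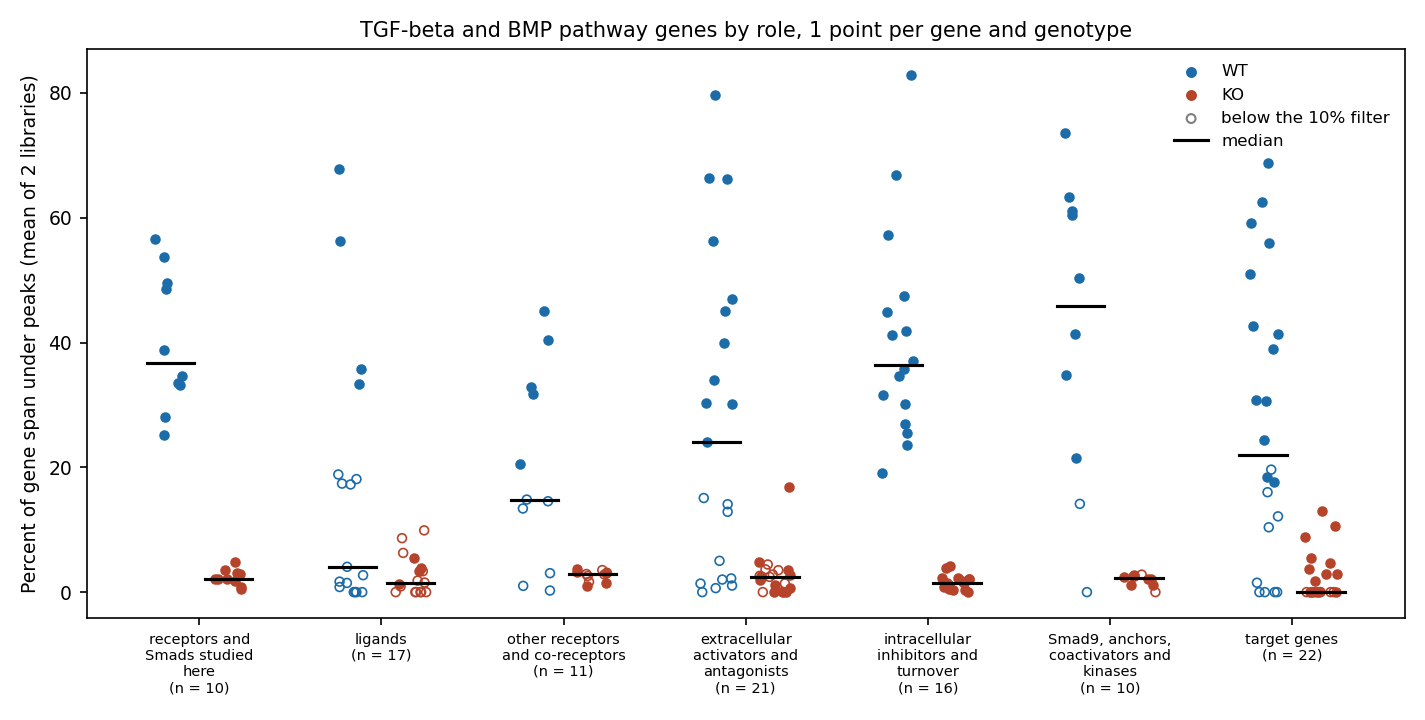
Mean percent of the span under peaks in WT (blue) and KO (red), 1 point per gene, for the 10 receptors and Smads and the 6 pathway lists (n under each name). Open points are genes below the 10% filter and black lines are medians over all genes of a list. The receptors and Smads all have WT means between 25.2% and 56.6%. The ligands run from 0% to 67.9%, with a median of 4.06%.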

How the data were processed

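H3K36me3 peak lists of 4 libraries, 2 per genotype, were used, 8 lists in all. Per the submitters' processing notes, Bowtie2 (no version given) aligned the reads to GRCm38. The authors deposited for each library 1 list called against Input and 1 against IgG, and a score per peak that is the authors' own value. Each peak's name begins with MACS; the caller's settings and version and the score's scale are things not given in the sources used here. This score was used only to filter peaks within a list (at or above the list's median). The labels also name a merged peak table, not used here. Groups and replicate numbers were taken from sample titles.

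Coverage was computed per RefSeq gene span (GRCm38.p6) with Python 3.11.15, numpy 2.4.6 and pandas 2.3.3 and drawn with matplotlib 3.10.9. KO was tested against WT with limma 3.58.1 (trend and robust options, statmod 1.5.0, R 4.3.3) on the percent scale, over protein-coding genes with a mean of 10% or more. P-values were adjusted by Benjamini-Hochberg, and the threshold was 0.05. The table gives no exons, so exon or intron position was not analysed here. Strand came from the RefSeq start table. All 10 receptors and Smads are named. Of each pathway list, the tested genes with the largest falls (up to 2), those with the smallest falls (up to 2) and any that rose are named. Of these, 1 gene is not reported here. Any other gene was picked once its values were known. The genes, lists and tests were chosen with earlier results of these data known. Alternatives were the IgG lists, filters, a score limit, merging of peaks within 1 kb, scaling, an arcsine scale, all annotated genes, a replicate block, and leaving out each library. For scaling, the filter was first applied to scaled values and was moved to unscaled values, so that the same genes were tested, after values had been seen. The fit was tested on simulated data: a loss given to most genes was called, but changes of 20 and 30 points given to a small share of genes were not, so calls here lean on most genes falling. A first version of this simulation made no calls and failed its own pass criterion. Its noise, then redrawn from WT pairs of like genes, and the criterion, now the general loss and the fitted medians, were both changed after that.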

Additional observations from a re-analysis of the deposited data

How the results depend on the processing

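Each of the 10 receptors and Smads kept its direction under every alternative in which it was tested. Of 119 single values, 114 stayed on their side of the threshold and 5 passed it no longer, all after scaling (adjusted p up to 0.191). The number of the 10 genes that fell was 4 with a 25% filter, which tested only these 4, and 5 after scaling. It was 9 with the score limit, where Bmpr1a was not tested. Without single libraries it was 8 to 10 (Tgfbr1 and Bmpr1a were not tested without either WT library). The highest adjusted p outside scaling was 0.0210. Pathway genes that fell numbered 35 against IgG, 20 with the 25% filter and 29 after scaling.

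Over all genes, 5883 fell with the 25% filter and 4890 were lower after scaling. Those that rose, 60 as reported, were 21 against IgG, 18 with the 25% filter, 492 without a filter, 16 with the score limit, 261 after scaling, 196 over all annotated genes and 26 to 200 without single libraries.

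Against IgG, with the score limit and after merging, the mean number of WT peaks over the 10 genes was 284.5, 187 and 117.5 (321 as reported), the WT kb covered 281.3, 235.1 and 385.0, and the mean WT width 1004, 1295 and 3599 bp. In KO, the number of peaks was 25 and 11.5 against IgG and with the score limit (32 as reported), the kb covered 13.9 and 6.54, and the width 557 and 562 bp, and 596 bp after merging. WT peaks met by KO peaks were 11.8% against IgG and 3.43% if 50% of the width had to be covered, where 14.8% was reported. The causes were not tested.

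With a replicate block, 9993 genes fell and 60 rose, and 10 of the 10 genes fell with adjusted p up to 0.00521. The differences between replicates 1 and 2 in WT and in KO had a correlation of -0.00333 over 10809 genes. With KO coverage this low, that value cannot show whether WT and KO libraries of the same number were handled together. The sample titles give only the number. Depth is not recorded in the peak lists, so no limit can be set on the signal of a gene that has no peak.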

Other observations

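Intracellular regulators of the pathway, a list of inhibitors and of turnover factors that act in either direction, had more WT coverage as a list than the ligands. Their median WT mean was 36.4% over 16 genes, beside 4.06% over 17 ligands, and all 16 had WT peaks. The inhibitory Smads, chosen after their values were seen, had 27.7% and 32.7% (Smad6) and 44.1% and 45.5% (Smad7) in WT against 0.878% and 3.49% (Smad6) and 0% and 1.502% (Smad7) in KO. Smad7 fell by 44.1 points (limma adjusted p = 0.000238) and Smad6 by 28.0 (adjusted p = 0.00149). Thbs1, an activator of latent TGF-beta, also chosen after its values were seen, had 80.3% and 79.1% in WT against 12.2% and 21.3% in KO against Input, and was listed without a peak in every library against IgG.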
